A study of Homo sapiens with 6 samples.

Results

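AKR1C1, AKR1C2 and AKR1C3 encode 3 closely related aldo-keto reductases, and GPX2 encodes a glutathione peroxidase of epithelial cells. These 4 genes were taken by symbol from the 753 genes of the table analysed here, and all 4 were present. The samples were AsPC-1 cells, an established human pancreatic cancer cell line. In the control group 3 samples carried a control lentivirus (genotype TMPRSS4 NC), and in the shTMPRSS4 group 3 carried a virus labelled shTMPRSS4 lentivirus (genotype TMPRSS4-Knockdown). TMPRSS4 is a serine protease of the cell surface. All 6 samples therefore shared the cell line and a lentiviral transduction, and the labels do not say whether replicates were separate cultures or how long after transduction RNA was taken. The p-values below thus set the group difference against the spread between these samples, which may be technical. Except in the permutation tests, that spread was estimated in part from the other genes tested, all picked for a difference between these groups.

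Aldo-keto reductases of the AKR1C family use NADPH to reduce ketones and aldehydes. They act on steroids, on prostaglandins and on carbonyl products of lipid oxidation. Glutathione peroxidases reduce hydroperoxides with glutathione, and GPX2 is the form typical of the gut lining. Genes of both families are textbook targets of NRF2, the transcription factor that binds antioxidant response elements (AREs), and GPX2 is also known as a WNT target.

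AKR1C1 (ENSG00000187134) lies on chromosome 10 at 4963253 to 4983283, plus strand, in GRCh38 with GENCODE release 29. AKR1C2 (ENSG00000151632) follows at 4987400 to 5018031 on the minus strand, after a gap of 4.1 kb, and AKR1C3 (ENSG00000196139) at 5035354 to 5107686 on the plus strand. GPX2 (ENSG00000176153) lies on chromosome 14 at 64939152 to 64942905, minus strand. Its span overlaps CHURC1 and the readthrough gene CHURC1-FNTB on the opposite strand. The labels describe no step that marks the strand, so reads from stretches transcribed on both strands cannot be told apart. Of the distinct 31-base words in the annotated GPX2 transcripts 1.33% occur in any other gene. CHURC1 and CHURC1-FNTB were not analysed here. AKR1E2, AKR1C8P and AKR1C4, their neighbours in the chromosome 10 cluster, were not analysed here. No other gene of the table lay within 2000 kb of the 3 AKR1C genes. Within that distance of GPX2 lay AKAP5, 464.6 kb away (0.24 to 0.50 FPKM in control and 0.11 to 0.19 FPKM in shTMPRSS4 libraries), and RHOJ, 1645.9 kb away (0 in each control and 0.07 to 0.28 FPKM in shTMPRSS4 libraries).

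**Figure D1:**
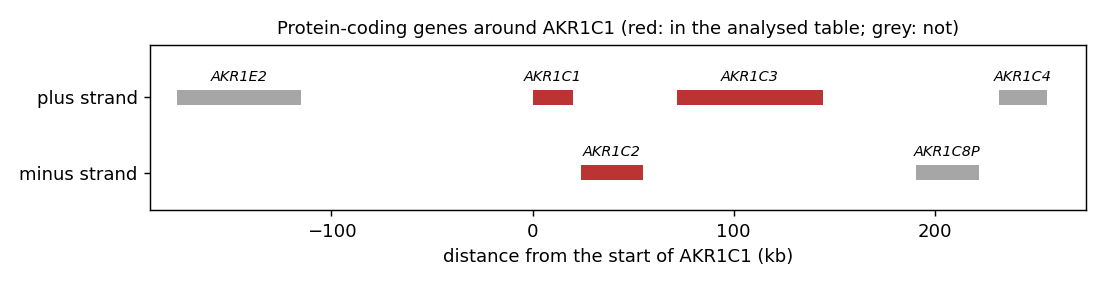
Map of protein-coding genes around AKR1C1, with distance from its start in kb on the x axis and strand on the y axis. Red genes were in the analysed table and grey ones were not. AKR1C1, AKR1C2 and AKR1C3 are neighbours, with AKR1C2 on the opposite strand.

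The bases before the annotated starts are shown because AKR1C1 and AKR1C2 differed in the size of their change and share nearly all of this sequence. All 4 genes matched the RefSeq promoter table (GRCh38.p14), with 1 start for each except AKR1C3, which had more and is shown at its first. These RefSeq starts differ from the ends of the GENCODE spans given above. The AKR1C2 and AKR1C3 windows lie inside those spans, and the AKR1C1 and GPX2 windows overlap theirs in part. Each line gives the 250 bases before the start, 5′ to 3′ on the gene's own strand. In AKR1C1 (chr10:4963165-4963414, plus strand) and AKR1C2 (chr10:5003858-5004107, minus strand) capitals mark bases without an identical partner in the alignment of both. In AKR1C3 (chr10:5048531-5048780, plus strand) capitals mark runs of at least 12 bases found in all 3 AKR1C windows. In GPX2 (chr14:64942746-64942995, minus strand) capitals mark a match to the ARE core.
AKR1C1: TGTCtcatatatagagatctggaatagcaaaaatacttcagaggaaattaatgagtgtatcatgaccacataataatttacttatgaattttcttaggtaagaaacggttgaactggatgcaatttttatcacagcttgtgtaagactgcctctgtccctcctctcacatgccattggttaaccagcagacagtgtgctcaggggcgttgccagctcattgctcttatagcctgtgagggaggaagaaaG
AKR1C2: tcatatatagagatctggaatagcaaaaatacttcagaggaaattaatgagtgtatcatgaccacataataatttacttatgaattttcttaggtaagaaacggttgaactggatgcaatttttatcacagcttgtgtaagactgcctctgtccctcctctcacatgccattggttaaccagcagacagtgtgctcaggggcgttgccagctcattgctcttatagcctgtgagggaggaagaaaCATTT
AKR1C3: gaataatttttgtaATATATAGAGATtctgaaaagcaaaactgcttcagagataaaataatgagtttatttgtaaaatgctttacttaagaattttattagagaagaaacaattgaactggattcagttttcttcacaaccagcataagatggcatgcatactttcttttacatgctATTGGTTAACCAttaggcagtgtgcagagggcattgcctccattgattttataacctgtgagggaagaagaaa
GPX2: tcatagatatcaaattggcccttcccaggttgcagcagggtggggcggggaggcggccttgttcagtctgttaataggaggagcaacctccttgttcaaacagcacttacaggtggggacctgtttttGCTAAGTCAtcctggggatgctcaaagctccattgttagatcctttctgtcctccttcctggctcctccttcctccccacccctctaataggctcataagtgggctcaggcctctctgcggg

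The AKR1C1 and AKR1C2 windows shared an unbroken identical run of 245 bases and differed at their ends, where the annotated starts are offset. AKR1C1 and AKR1C3 were 74.0% identical over the 250 alignment columns in which the windows overlap, and the run attggttaacca was in all 3, beginning 77, 81 and 73 bases before the starts of AKR1C1, AKR1C2 and AKR1C3. That run holds the CCAAT box on the strand opposite to each gene, and 32.0% of 35116 windows of this length hold the box on either strand. The ARE core, searched as TGACNNNGC on both strands, was present once in the GPX2 window and in 10.9% of all windows. In GPX2 it reads TGACTTAGC on the strand opposite to the gene. The ARE core was not found in these windows of the AKR1C genes, which says nothing of elements farther away. The letters CTTTGA, a core of TCF/LEF sites, were also in the GPX2 window, on the strand opposite to the gene, and in 11.2% of all windows. They occurred in the second AKR1C3 window too, and not in the AKR1C1 or AKR1C2 window. A match is a description of letters and not a measured site.

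The coding parts of AKR1C1 and AKR1C2 are also nearly identical, while their whole transcripts share less. Over 972 coding bases AKR1C1 and AKR1C2 differed at 19 (98.0% identity), and AKR1C3 differed from AKR1C1 at 79 and from AKR1C2 at 85. The longest identical coding run of AKR1C1 and AKR1C2 was 189 bases, and of the distinct 31-base words in their annotated transcripts 35.7% of those of AKR1C1 and 48.2% of those of AKR1C2 occur in another gene, mostly in each other. For AKR1C3 this share was 7.17%. The split of reads between AKR1C1 and AKR1C2 thus depends on the counting rule for such stretches, which is not given in the sources used here. Only the coding parts were searched for the window with the most differences, and no reads were examined. Coding bases 103 to 162, counted from 1 at the start codon, are shown. Of all 60-base coding windows these bases hold the most AKR1C1 to AKR1C2 differences, 10 of the 19. They lie within 1 exon, at chr10:4965932-4965991 (plus strand) in AKR1C1, chr10:5001604-5001663 (minus strand) in AKR1C2 and chr10:5096428-5096487 (plus strand) in AKR1C3. Capitals mark positions at which the 3 genes are not all equal.
AKR1C1: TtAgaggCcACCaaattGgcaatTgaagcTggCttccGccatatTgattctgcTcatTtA
AKR1C2: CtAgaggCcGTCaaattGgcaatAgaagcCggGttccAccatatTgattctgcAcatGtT
AKR1C3: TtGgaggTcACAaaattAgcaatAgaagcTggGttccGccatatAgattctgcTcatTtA

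The genes of the table were picked by the contrast described here. All 753 in the authors' deposited table changed by 1 or more on the log2 scale, in either direction, at a false discovery rate (FDR) of at most 0.0490, and 73.7% were higher in shTMPRSS4. A rise of any listed gene, and a separation of its groups without overlap, is thus given in part by its presence in the list. The share of all listed genes whose groups did not overlap was not counted. Depth recovered from the table was between 30200000 and 57200000 reads per library. No gene with the symbol TMPRSS4 was in the table. Its level was therefore not analysed here, which leaves the knockdown unchecked, and shTMPRSS4 is the name from the labels. Why TMPRSS4 is absent was not tested. Levels are in FPKM, fragments scaled to gene length and library depth. Fold changes are relative to recovered depth, on the log2 scale of depth-scaled counts plus 0.5. In bulk samples a change in the number of cells that express a gene and a change in RNA per cell cannot be told apart.

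AKR1C2 had by far the largest relative change of the AKR1C genes. Its enzyme is known for inactivating dihydrotestosterone. The control libraries 1, 2 and 3 held 1.86, 2.05 and 1.93 FPKM, from 188, 135 and 103 reads. The shTMPRSS4 libraries held 18.00, 18.39 and 19.14 FPKM, from 1700, 1641 and 1584 reads. All shTMPRSS4 libraries were high, and the groups were far apart. The coefficient of variation of the controls, 4.94%, was below the counting error of the smallest control count, 9.85%. The SE given next may thus be too small. AKR1C2 rose 9.51-fold by mean FPKM, with a log2 fold change of 3.25 ± 0.05 (SE, n = 3 per group) and an adjusted p of 6.12e-10 in edgeR's quasi-likelihood test. In that test 99.1% of the 705 listed genes tested passed and 73.3% passed as higher, so that passing says little about one gene. By size, 74 of the 705 genes had a larger log2 fold change. With scaling factors computed from the listed genes AKR1C2 still passed, at a smaller log2 fold change of 2.04 with TMM (edgeR) and 2.09 with DESeq2. Such factors move the median of all tested genes to 0.09 (TMM) and 0.12 (DESeq2). A listed gene with a rise near the table's median thus falls near 0 by construction.

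AKR1C1, whose enzyme is known for inactivating progesterone, started higher and changed less. It had 24.1, 23.1 and 24.7 FPKM in control libraries 1, 2 and 3 and 58.1, 57.7 and 58.3 FPKM in shTMPRSS4 libraries 1, 2 and 3. The groups did not overlap, and the coefficient of variation was 3.39% in control and 0.549% in shTMPRSS4. The latter is below the counting error of the smallest shTMPRSS4 count, 1.15%, so it understates the error of these values. AKR1C1 rose 2.42-fold, with a log2 fold change of 1.28 ± 0.03 (edgeR adjusted p = 2.04e-09). This was close to the median of all 705 tested genes, 1.29. With scaling factors computed from the genes of the table, the log2 fold change of AKR1C1 was 0.07 with TMM (edgeR adjusted p = 0.303) and 0.11 with DESeq2 (adjusted p = 0.302), so it passed with neither. With upper-quartile scaling over the same genes AKR1C1 did pass, at 0.61 (edgeR adjusted p = 1.46e-06).

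AKR1C3, which makes testosterone from androstenedione and also acts on prostaglandins, had the highest FPKM of the 3. It had 66.8, 62.3 and 65.9 FPKM in control libraries 1, 2 and 3. The shTMPRSS4 libraries had 140.3, 151.8 and 142.1 FPKM, all above the controls. AKR1C3 rose 2.23-fold relative to recovered depth, with a log2 fold change of 1.15 ± 0.05 (edgeR adjusted p = 7.81e-09), and had -0.05 with TMM and -0.02 with DESeq2 scaling over the listed genes. Upper-quartile scaling over those genes gave 0.49 (edgeR adjusted p = 1.55e-05). Leaving out any 1 library kept the log2 fold change of AKR1C3 between 1.12 and 1.18, that of AKR1C1 between 1.25 and 1.30 and that of AKR1C2 between 3.22 and 3.29.

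**Figure D2:**
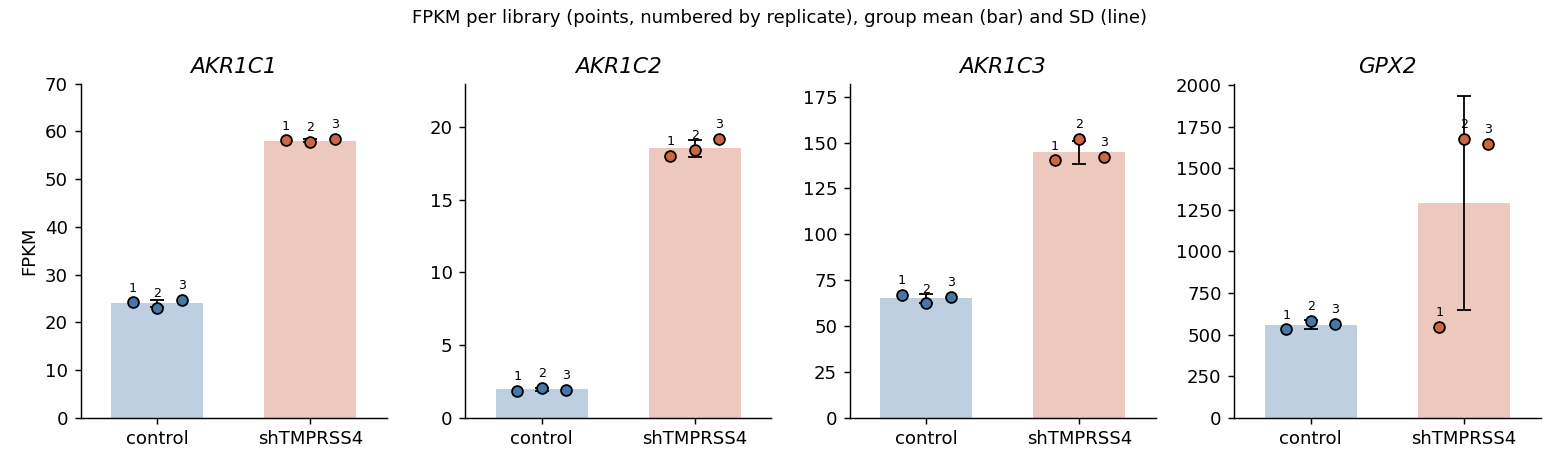
FPKM (y axis, from 0, a scale of its own in each panel) of AKR1C1, AKR1C2, AKR1C3 and GPX2 in control and shTMPRSS4 libraries. Points are libraries numbered by replicate, bars are group means and lines the SD. Groups are apart for the AKR1C genes, by 9.51-fold in mean FPKM for AKR1C2, while GPX2 of shTMPRSS4 replicate 1 sits among the controls. All genes of the table were selected for a difference between these groups.

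Ratios within a library do not depend on its depth or on the scaling between libraries. The AKR1C2 to AKR1C1 FPKM ratio was 0.0771, 0.0889 and 0.0783 in the controls and 0.310, 0.319 and 0.328 in shTMPRSS4 libraries. AKR1C2 thus gained on its neighbour by 3.92-fold, a log2 difference of 1.97 ± 0.07 (SE), in 3 of 3 libraries. An exact two-sided permutation test gave p = 0.1, the smallest that 3 against 3 libraries allow, and 0.1 after Benjamini-Hochberg adjustment over the 3 ratios compared. The AKR1C2 to AKR1C3 ratio behaved alike, with 0.0278, 0.0329 and 0.0293 in control and 0.128, 0.121 and 0.135 in shTMPRSS4 libraries, a log2 difference of 2.10 ± 0.08 (same exact permutation p = 0.1).

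AKR1C3 and AKR1C1 moved by nearly the same factor. Their FPKM ratio was 2.77, 2.70 and 2.67 in the controls and 2.41, 2.63 and 2.44 in shTMPRSS4 libraries. These values did not overlap, but the log2 difference was small, -0.12 ± 0.04 (exact permutation p = 0.1). By these ratios the unequal change is that of AKR1C2 against the other 2 genes. This rests on how reads shared by AKR1C1 and AKR1C2 were counted, which is not known.

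**Figure D3:**
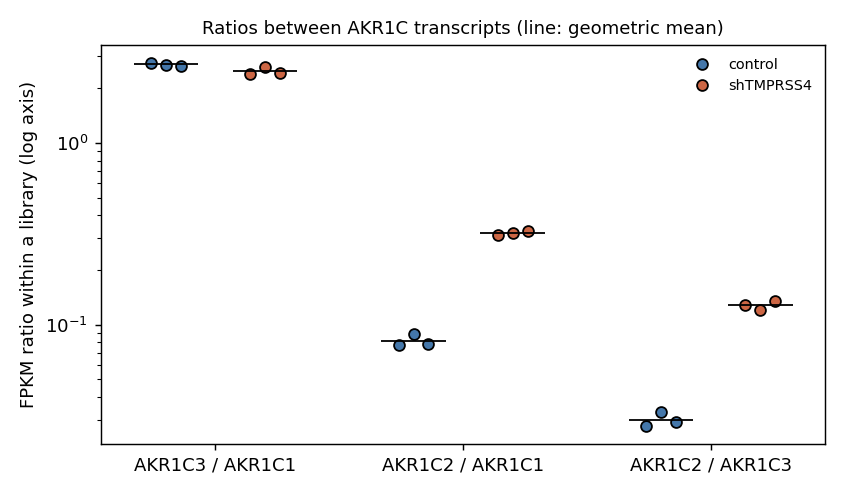
FPKM ratios between AKR1C genes within each library (y axis, log scale), with control libraries in blue and shTMPRSS4 libraries in orange; lines are geometric means. Both ratios with AKR1C2 on top are separated between groups by a log2 difference of 1.97 or 2.10, and the AKR1C3 to AKR1C1 ratio by -0.12.

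The summed FPKM of the 3 AKR1C genes was 92.8, 87.4 and 92.4 in the controls and 216, 228 and 220 in shTMPRSS4 libraries. AKR1C2 made up 2.15% ± 0.177 of this sum in control and 8.37% ± 0.325 in shTMPRSS4 libraries (SD, n = 3 per group). AKR1C3 made up 71.5% ± 0.414 and 65.4% ± 1.06, and AKR1C1 26.4% ± 0.326 and 26.2% ± 0.814, which overlapped. These shares rest on the gene lengths the authors used. Counts, FPKM and depth imply 2769 bases for AKR1C1, 1767 for AKR1C2 and 1205 for AKR1C3, although the coding parts are equally long. With other lengths the order of levels could change, since AKR1C1 and AKR1C3 had nearly equal reads, for example 8584 and 9015 in shTMPRSS4 replicate 1.

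GPX2 was the most abundant of the 4 genes by FPKM. Among all 753 genes it ranked 2 by FPKM in each control library and 1 in each shTMPRSS4 library. It had 530.5, 583.9 and 562.2 FPKM in control libraries 1, 2 and 3. The shTMPRSS4 libraries had 546.8, 1674 and 1646 FPKM. Replicate 1 of shTMPRSS4 lay within the range of the controls, at 0.978 of their mean, while the mean of replicates 2 and 3 was 2.97 times the control mean. These levels came from 24792, 71717 and 65404 reads.

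The difference in GPX2 between groups did not pass. Its log2 fold change was 1.04 ± 0.54 (SE, n = 3 per group), with an edgeR adjusted p of 0.0671, and it was -0.17 with TMM over the listed genes. Among 705 tested genes 495 had a larger log2 fold change. The authors' deposited table gives 1.21, the log2 ratio of mean FPKM, with an FDR of 0.0240. The call turned on shTMPRSS4 replicate 1 and on the tool. Without that library the log2 fold change was 1.57 ± 0.04 (edgeR adjusted p = 8.94e-08). Without shTMPRSS4 replicate 2 it was 0.76 and without replicate 3 it was 0.78, and neither passed (edgeR adjusted p = 0.173 and 0.172). DESeq2 with recovered depth called GPX2 with all 6 libraries (adjusted p = 0.000609).

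The 3 AKR1C genes did not share this split. In shTMPRSS4 replicate 1 the log2 difference from the control mean was 3.21 for AKR1C2, 1.28 for AKR1C1 and 1.11 for AKR1C3. The means of replicates 2 and 3 differed from the controls by 3.27, 1.28 and 1.18. For GPX2 these values were -0.03 and 1.57. The SD of log2 GPX2 over the shTMPRSS4 libraries was 0.92, against 0.07 over the controls. A larger shTMPRSS4 SD was found for 4 of the 517 genes whose mean count reached 50, and for none of the 71 genes whose mean level reached 20 FPKM.

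**Figure D4:**
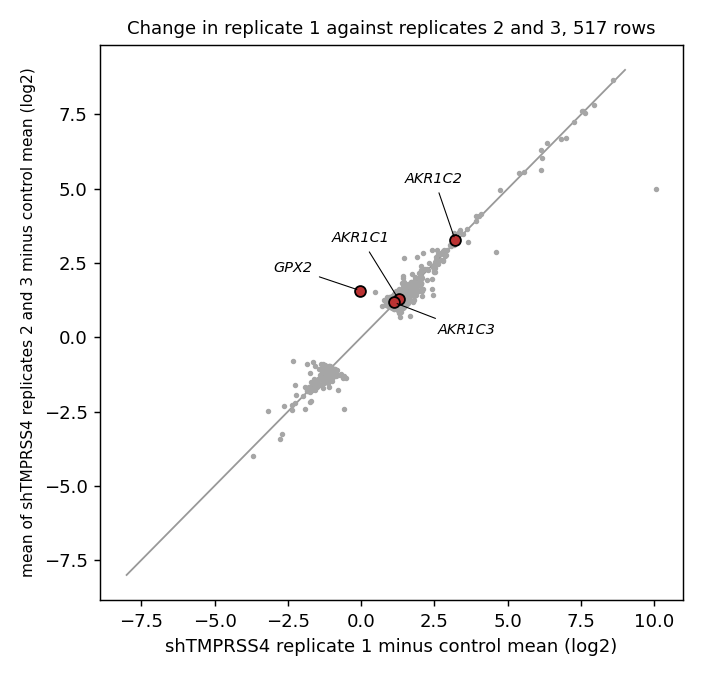
Each point is a gene, for the 517 genes whose mean count reached 50. The x axis is the log2 difference of shTMPRSS4 replicate 1 from the control mean and the y axis that of the mean of replicates 2 and 3, and the line marks equality. GPX2 lies off the line at -0.03 and 1.57, while AKR1C1, AKR1C2 and AKR1C3 lie on or near it.

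Replicate 1 of shTMPRSS4 did not stand apart over the table as a whole. Of the 517 genes, 3 were at least 2-fold below both other shTMPRSS4 libraries in replicate 1, namely GPX2, IQCN and NECAP1, and 1 was as far above. In replicate 3 there were 6 genes below and 2 above, and in control replicate 3 there were 14 below and 2 above. NECAP1 had 20.2, 18.9 and 17.2 FPKM in the controls and 3.77, 10.99 and 10.64 in shTMPRSS4 libraries. It thus shared the low value in replicate 1 with GPX2, but its shTMPRSS4 values were all under its controls.

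Among the same 517 genes, those most like each gene in pattern were found by Pearson correlation of log2 depth-scaled counts over 6 libraries. Every gene in the table was selected for a difference between the same groups, so high values describe that difference. For AKR1C1 they were MYCL (r = 0.9995), TMEM61 and HGD, for AKR1C2 SPPL2B (r = 0.9997), NEUROG3 and GPR142, and for AKR1C3 DLL4 (r = 0.9998), ZNF862 and RHOB. GPX2 had no such close match. IQCN (r = 0.905), FAIM2 (0.840) and GATA2 (0.832) came nearest. Over the 3 shTMPRSS4 libraries alone, among 30 genes that varied at least 2-fold there, NECAP1 (r = 0.9999), IQCN (r = 0.9997) and IL12A (r = 0.910) came first. GPX2 was nearly equal in replicates 2 and 3, so these r values mostly restate a low value in replicate 1. NECAP1 and IQCN are the genes already named above for that low value.

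The other genes of the same pathways were taken from lists of NRF2, redox, glutathione, steroid, prostaglandin, retinoid and carbonyl genes. Of 206 such genes besides the 4 described, 13 were in the table, and in edgeR's quasi-likelihood test at an adjusted p under 0.05, 11 of these passed as higher and 2 as lower. Over all 705 genes tested 73.3% passed as higher and 25.8% as lower, so these counts lie near the background of the table. Their median log2 fold change was 1.73, against 1.29 for all 705 genes tested. With scaling factors computed from the listed genes, those passing as higher numbered 6 (TMM), 7 (DESeq2) and 11 (upper quartile), and 2 passed as lower in each. None of 10 NRF2 regulators and partners was in the table. Of the 35 genes on the NRF2 target list used here, the 4 described were the only ones in it. That list does not hold every NRF2 target, and genes of the other lists, such as GSTA1 and ALDH3A1, were not sorted by NRF2 control. None of 12 NADPH oxidase and dual oxidase genes was in it, and of 14 AKR genes and 8 glutathione peroxidases no others were. Genes outside the table were not analysed here, so nothing is said of their change.

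Glutathione genes other than GPX2 were at low levels. GSTA1, an alpha-class glutathione S-transferase, had 0.62, 0.42 and 0.75 FPKM in control and 3.48, 3.58 and 4.01 FPKM in shTMPRSS4 libraries. It rose with a log2 fold change of 2.64 ± 0.25, and its close relative GSTA2 rose from a mean of 0.447 to 1.56 FPKM at recovered depth. GSTA1 passed under scaling over the listed genes too, at 1.45 with TMM and 1.48 with DESeq2. GSTA2, with a log2 fold change of 1.79 at recovered depth, had 0.60 with TMM (edgeR adjusted p = 0.0643), where it did not pass, and 0.64 with DESeq2 (adjusted p = 0.0425). Of the 31-base words of GSTA1 47.4% occur in another gene, mostly GSTA2, so both levels depend on read assignment. GGT5, a gamma-glutamyl transferase, had 3 control reads over 3 libraries and 86 in shTMPRSS4 libraries. SELENOP, a selenoprotein that carries selenium, rose from a mean of 1.60 to 3.55 FPKM relative to recovered depth, but had a log2 fold change of -0.04 with TMM and -0.02 with DESeq2 scaling over the listed genes. Of its 31-base words 34.6% occur in another gene, mostly CCDC152, which overlaps it on the opposite strand.

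Among the steroid and carbonyl enzymes other than the AKR1C genes, HSD17B10, a mitochondrial dehydrogenase, was the most abundant. It had 55.1, 62.6 and 55.7 FPKM in the controls and 159.9, 165.4 and 169.0 FPKM in shTMPRSS4 libraries. All shTMPRSS4 values lay above all controls, and HSD17B10 rose by 1.51 ± 0.06 on the log2 scale at recovered depth. With scaling over the listed genes it still passed, at 0.31 with TMM and 0.34 with DESeq2. ALDH3A1, an aldehyde dehydrogenase, had 13.9 ± 1.47 FPKM in control and 28.3 ± 0.735 FPKM in shTMPRSS4 libraries (SD, n = 3 per group). It passed as higher relative to recovered depth and had a log2 fold change of -0.17 with TMM and -0.14 with DESeq2 scaling over the listed genes. The reductase DHRS2 rose from 0.607 to 2.70 FPKM. The glucuronosyltransferases UGT2B7 and UGT2B15, which conjugate steroids, passed as higher at recovered depth from few reads, 19 and 4 over the controls. With scaling over the listed genes UGT2B7, which had a log2 fold change of 1.73, did not pass, at 0.57 with TMM (edgeR adjusted p = 0.394) and 0.57 with DESeq2 (adjusted p = 0.449). UGT2B15 shares 41.1% of its 31-base words with another gene, mostly UGT2B17. PTGDR2, a prostaglandin D2 receptor, rose from 0.127 to 0.527 FPKM. With TMM over the listed genes DHRS2 and PTGDR2 still passed, at log2 fold changes of 1.08 and 0.85 in place of 2.28 and 2.04.

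Retinoid genes went both ways. AKR1C3 is also known to reduce retinaldehyde. ALDH1A2, which makes retinoic acid, had 134, 73 and 26 reads in the controls and 0, 5 and 0 in shTMPRSS4 libraries, and fell. RDH5, a retinol dehydrogenase, rose relative to recovered depth, from 2.32 ± 0.255 FPKM in control to 4.92 ± 0.265 FPKM in shTMPRSS4 libraries, but had -0.12 with TMM and -0.08 with DESeq2 scaling over the listed genes. Of its 31-base words 62.7% occur in another gene, mostly the readthrough gene BLOC1S1-RDH5. DHRS9 passed as lower, although its control values of 2.17, 1.49 and 3.29 FPKM overlapped the 1.53, 0.96 and 0.74 FPKM of shTMPRSS4 libraries. These 2 retinoid genes were the only ones of the 13 to pass as lower.

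**Figure D5:**
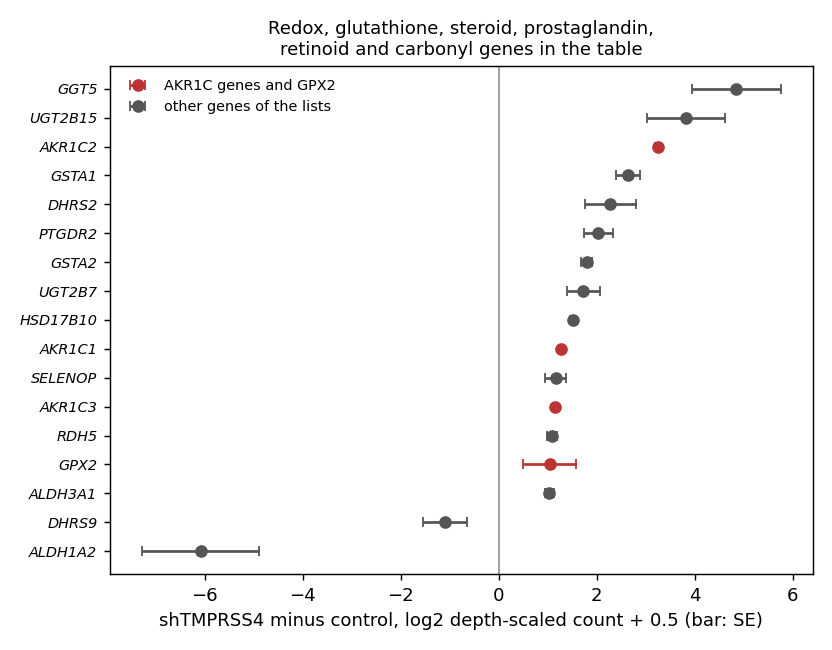
Log2 fold change with SE (x axis, shTMPRSS4 minus control at recovered depth, n = 3 per group) of the 17 table genes in the pathway lists. AKR1C1, AKR1C2, AKR1C3 and GPX2 are red. With TMM over the listed genes, which moves the median of all tested genes to 0.09, AKR1C3, GPX2, SELENOP, ALDH3A1 and RDH5 fell below 0. GPX2 has an SE of 0.54, and the bar of AKR1C1, 0.03, is much shorter.

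Markers of other cell types were few in the table. Of 13 acinar genes CELA3A was present, with 0.26 to 0.34 FPKM in control and 3.15 to 4.34 FPKM in shTMPRSS4 libraries. Of 10 fibroblast genes FAP was present (0.40 to 0.58 and 1.55 to 1.95 FPKM), of 7 endothelial genes PECAM1 (0.38 to 0.66 and 0.15 to 0.24 FPKM), and of 9 immune genes none. Their part in the AKR1C and GPX2 values was not tested. None of 10 pancreatic ductal markers was in the table, so the labelled cell type was not checked here.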

How the data were processed

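RNA of 3 control and 3 shTMPRSS4 AsPC-1 samples was poly(A)-enriched and sequenced on an Illumina HiSeq instrument, per the labels' protocols. The aligner is Bowtie 0.12.2, per the submitters' processing notes, which list mm8 and mm9, both mouse builds. All 753 rows carry human Ensembl identifiers, so the reference used is uncertain. Counting tool, strand setting and the authors' test: not given in the sources used here. Per the file headers, the deposited table holds whole-number read counts and FPKM values rounded to 2 decimals for each library. It also holds the authors' mean FPKM, log2 fold change, p-value and FDR. Groups followed the sample titles.

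Relative depth was the median ratio of count to FPKM over 159 genes with at least 200 counts in each library. Its absolute scale came from 12 genes with 1 transcript in GENCODE release 29, whose estimates for control replicate 1 had a 5th to 95th percentile range of 57200000 to 57300000 reads. Counts were tested at that depth in edgeR 4.0.16 under R 4.3.3 (quasi-likelihood test), with its filter on low counts, robust estimation and Benjamini-Hochberg adjustment over 705 genes, with a threshold of 0.05. The script was tested on simulated data. Since the rows were picked by the same contrast, these p-values describe and do not test anew. On average over genes, replicates of a group differed by more than counting noise. The AKR1C2 values of the controls and the AKR1C1 values of the shTMPRSS4 libraries did not. Alternatives were TMM, upper quartile, DESeq2 1.42.0, limma 3.58.1 on log2(FPKM + 0.1) or log2(FPKM + 1), no filter, the replicate number as a block and leaving out each library. Counts of the other pathway genes under these alternatives were added after seeing the data.

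The genes described and all lists were chosen with earlier results of these data known. Named genes were the 4 members, listed members of each pathway list (up to 6 by the authors' FDR), table genes within 2000 kb and the 3 genes most alike in pattern.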

Additional observations from a re-analysis of the deposited data

How the results depend on the processing

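Scaling over the listed genes themselves, which were selected mostly for a rise, moved the median log2 fold change by -1.20 (TMM) and -1.16 (DESeq2 size factors). A rise near the table's median therefore lands near 0 by construction under these scalings. Genes called higher fell from 517 to 167 and 181, with 190 and 187 called lower instead of 182. AKR1C1 then had log2 fold changes of 0.069 and 0.11, AKR1C3 -0.054 and -0.016, and GPX2 -0.17 with TMM. Of the other pathway genes 6 and 7 were then called higher instead of 11. Upper-quartile scaling, also over the listed genes, moved the median by -0.66 and gave 412 higher and 187 lower. AKR1C1 (0.61) and AKR1C3 (0.49) still passed with it and GPX2 (0.37) did not. With it 11 other pathway genes were called higher. AKR1C2 kept its direction and its call in all 14 alternatives, between 2.04 and 3.29. GPX2 passed in DESeq2 with recovered depth, at 1.21, and without shTMPRSS4 replicate 1, at 1.57. Over the libraries left out in turn its log2 fold change ran from 0.76 to 1.57. The AKR1C ratios kept their direction in the 7 alternatives of each. With the replicate number as a block, 507 genes were higher and 175 lower, and GPX2 had an adjusted p of 0.157 with its log2 fold change of 1.04. The AKR1C genes also passed with that block. No pairing by number was seen, since deviations of same-numbered libraries had correlations of -0.07, -0.06 and -0.02. Those of differently numbered libraries ran from -0.03 to 0.09. With 3 libraries per group this check cannot exclude a weak link between same-numbered samples. Counting error limits AKR1C2 most, at 9.85% for its smallest control count.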

Other observations

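The authors' pathway terms carried by the AKR1C genes and GPX2 hold further genes, read after the values were seen. The term for xenobiotic metabolism by cytochrome P450 had 8 genes in the table, 7 of them called higher and 1 lower in edgeR's quasi-likelihood test at recovered depth. Of all 705 genes tested 73.3% were called higher and 99.1% in either direction, so that count lies near the background. With TMM over the listed genes AKR1C1, ALDH3A1, GSTA2 and UGT2B7, which carry this term, did not pass. The lower one was CYP2B6, a cytochrome P450 of drug metabolism, which fell from 4.08 ± 0.464 to 1.86 ± 0.185 FPKM (SD, n = 3 per group). Of its 31-base words 22.7% occur in another gene, mostly the pseudogene CYP2B7P. The arachidonic acid term, which holds AKR1C3 and GPX2, had 6 genes. ALOX5, the lipoxygenase that starts leukotriene synthesis, had 11.8, 11.9 and 11.5 FPKM in the controls and 28.3, 28.0 and 27.6 FPKM in shTMPRSS4 libraries. ALOX5 rose 2.38-fold, with a log2 fold change of 1.25 ± 0.02 relative to recovered depth, and had 0.04 with TMM over the listed genes (edgeR adjusted p = 0.639), where it did not pass.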
